A study of Mus musculus with 6 samples.

Results

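The genes described are 10 regulators of pharyngeal and heart development: the zinc finger genes *Gata3*, *Gata4*, *Gata5* and *Gata6*, the NK2 homeobox genes *Nkx2-1*, *Nkx2-3*, *Nkx2-5* and *Nkx2-6*, the LIM homeobox gene *Isl1* and the MADS box gene *Mef2c*. They were chosen by gene symbol, and 9 of the 10 were followed among the 14647 genes of the table, of which 13547 were expressed highly enough to be tested. *Nkx2-1* is not analysed here. Expression was measured by RNA sequencing in the dissected pharyngeal region of mouse embryos at E9.5, a day when the heart tube has looped and the pharyngeal arches are forming. Arch 1 was left out, the more caudal arches were taken, and the heart borders the tissue at its lower edge. Of the 6 libraries, 3 came from Pax9-/- embryos, which lack both working copies of the endodermal transcription factor gene *Pax9* in every tissue, and 3 from wild type embryos, all on a C57Bl/6J background and stage-matched by somites, with 1 embryo per library. Effective library sizes were 11509498 to 11727961 reads in *Pax9*-null and 12352467 to 12692202 in wild-type libraries.

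These regulators act together. Gata4, Gata5 and Gata6 bind GATA sequences, Nkx2-5 binds next to them in the promoters of contractile genes, and Mef2c joins both in the cardiomyocytes of the heart tube. Isl1 marks the second heart field, the progenitor population in the pharyngeal mesoderm that adds the outflow tract and right ventricle to the heart. Nkx2-3 and Nkx2-6 are best known from the pharyngeal endoderm, and Gata3 from ectoderm, neural tissue and the epithelium of the pharyngeal pouches.

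Promoter sequences are shown for *Nkx2-5*, which varied most between libraries, for *Gata5*, which came nearest to the test threshold in one fit, and for *Isl1*, which varied least over all 6 libraries. Each is the run of 250 bases before the RefSeq start of the gene on GRCm38.p6, written 5′ to 3′ on the strand of the gene. *Nkx2-5* is at chr17:26841566-26841815, *Gata5* at chr2:180334680-180334929 and *Isl1* at chr13:116309689-116309938, all on the minus strand. The *Nkx2-5* run lies inside the GENCODE M21 span of the gene, 26838664 to 26845009, which begins further upstream than the RefSeq start used. Capitals mark GATA motifs, searched on both strands as the spelling AGATAA and as the spellings with G at the end (AGATAG), with T at the start (TGATAA) or with both changes (TGATAG).
Nkx2-5: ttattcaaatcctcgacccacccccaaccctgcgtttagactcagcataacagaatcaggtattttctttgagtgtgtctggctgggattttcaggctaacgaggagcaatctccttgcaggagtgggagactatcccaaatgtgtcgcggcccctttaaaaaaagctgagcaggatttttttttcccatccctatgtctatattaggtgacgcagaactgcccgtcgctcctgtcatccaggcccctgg
Gata5: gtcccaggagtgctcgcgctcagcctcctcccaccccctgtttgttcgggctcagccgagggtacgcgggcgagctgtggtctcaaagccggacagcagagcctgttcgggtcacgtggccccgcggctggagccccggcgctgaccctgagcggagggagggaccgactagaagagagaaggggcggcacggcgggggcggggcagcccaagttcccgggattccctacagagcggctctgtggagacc
Isl1: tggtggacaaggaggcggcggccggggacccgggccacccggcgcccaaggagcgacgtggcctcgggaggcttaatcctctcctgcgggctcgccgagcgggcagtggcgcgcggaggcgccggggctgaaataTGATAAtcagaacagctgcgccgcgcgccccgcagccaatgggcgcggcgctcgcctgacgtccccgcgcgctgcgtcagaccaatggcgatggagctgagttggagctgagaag
*Isl1* held 1 GATA motif, which began 115 bases before the start, and *Nkx2-5* and *Gata5* held 0. Of 32851 mouse promoters of the same length, 26.5% held at least 1 such motif. The core NK2 sequence AAGTG, on either strand, was in 40.7% of them and in 0 of these 3. A match is a run of letters and not a shown binding site. Promoter entries were matched for 7 of the 10 genes.

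Values are log2 RPKM, the log2 of reads scaled to exon length and to the size of the library. Changes were tested by limma over all 13547 tested genes, with Benjamini-Hochberg adjustment, and called at an adjusted p of at most 0.1. In all 6 libraries, 26.7% of tested genes were called, and 0 of the 9 regulators were among them. None of the 9 had an unadjusted p under 0.05. Fitted log2 fold changes, *Pax9*-null minus wild type, were higher for 6 and lower for 3, with a median of 0.18 against −0.001 over all tested genes. The libraries separated fully by genotype in 41.9% of tested genes, and in 0 of the 9 regulators.

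Wild-type replicate 3 stood apart before any test. The summed RPKM of 20 cardiomyocyte markers was 153.6 in this library, 1787 and 1897 in the other wild-type libraries and 1614 to 2080 in the *Pax9*-null libraries. It was the lowest of the 6 libraries for 20 of the 20 markers, for 6 of the 9 regulators and for 14.1% of all tested genes. *Myl7*, an atrial light chain and the most abundant of the markers, stood at 23.4 RPKM there against 455.8 to 737.6 in the other libraries. Neuronal genes ran the other way, with replicate 3 the highest library for 11 of 14. In dissected tissue, fewer cells of a type and less RNA per cell cannot be told apart. The *Pax9* transcript matched the genotype label of this and every other library, at −0.63 to −0.43 log2 RPKM in the *Pax9*-null and 0.63 to 0.96 in the wild-type embryos, so that 0.401 of the wild-type level remained. Every regulator is therefore given with and without wild-type replicate 3.

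Without it, 15.8% of tested genes were called and again 0 of the 9 regulators. One gene, *Gata5*, then had an unadjusted p under 0.05. The fitted direction was lower in *Pax9*-null embryos for 7 and higher for 2, with a median of −0.16. Full separation of the genotypes was seen for 2 of the 9 regulators, *Gata5* and *Isl1*, against 50.0% of all tested genes in the same 5 libraries. With all 6 libraries and the mean log2 RPKM of the cardiomyocyte markers as a covariate, 20.9% of tested genes were called and 0 of the 9 regulators. That mean was 0.415 in wild-type replicate 3 and 4.74 to 5.34 in the other libraries. The covariate therefore mainly marks that library, and this fit is not independent of leaving it out. The read numbers quoted for each regulator were recovered from the log2 RPKM values, which the table gives without counts.

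**Figure D1:**
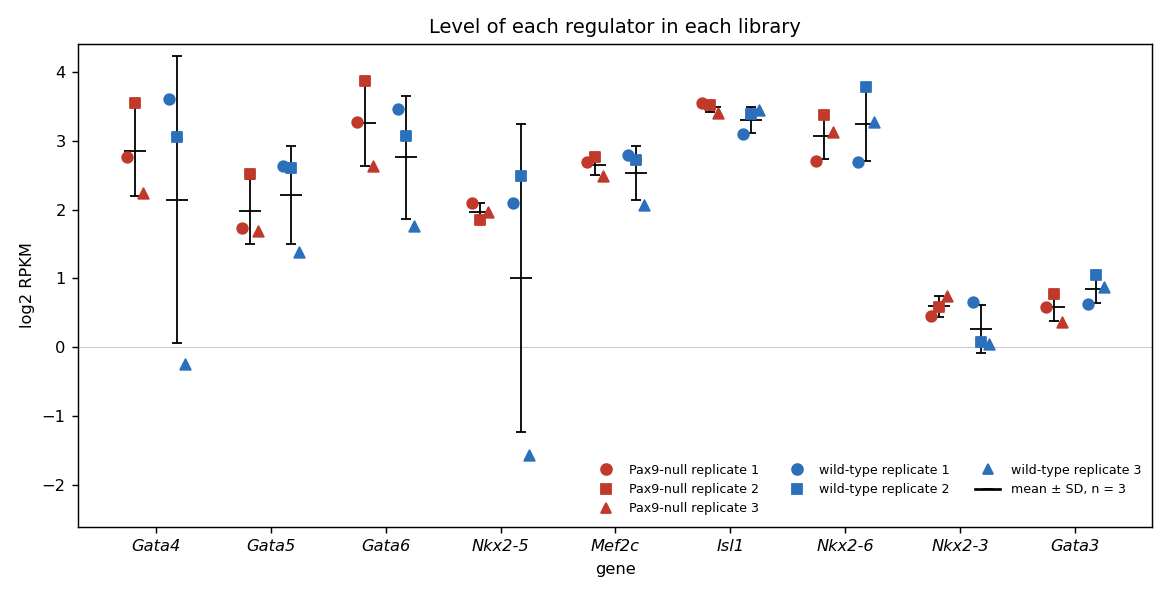
Level of each of the 9 regulators (log2 RPKM, vertical axis) in each of the 6 libraries. Red symbols are *Pax9*-null and blue symbols wild-type embryos, with circles, squares and triangles for replicates 1, 2 and 3, and black bars the mean ± SD of 3 libraries. The blue triangle, wild-type replicate 3, is at −0.24 for *Gata4* and −1.56 for *Nkx2-5*, far below the other 5 libraries, and lies among them for *Isl1*, *Nkx2-6* and *Gata3*.

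*Nkx2-5* (ENSMUSG00000015579, chromosome 17 from 26838664 to 26845009, minus strand), the NK2 factor of cardiomyocytes and their progenitors, changed most between libraries. Its log2 RPKM was 2.10, 1.85 and 1.96 in *Pax9*-null replicates 1 to 3 and 2.09, 2.49 and −1.56 in wild-type replicates 1 to 3. The last value rests on 6 reads, and the others on 63 to 105. The 5 libraries other than wild-type replicate 3 spanned 0.63 on the log2 scale, and the difference of that library from the lowest of them was −3.41. The null and wild-type ranges overlapped. Over 6 libraries the log2 fold change was 0.96 (SE 0.94, adjusted p = 0.489 by limma), with a 95% confidence interval of −1.21 to 3.13. Without wild-type replicate 3 it was −0.32 (SE 0.18, adjusted p = 0.256 by limma, interval −0.73 to 0.09), so that the sign turned with 1 library. The fit with the cardiomyocyte marker covariate gave −0.03 (SE 0.21). A further fit, chosen after seeing the data, left out that library and removed trends of gene length and GC content. The log2 fold change there was −0.48 (SE 0.19, adjusted p = 0.214 by limma, interval −0.92 to −0.04). The genotypes then did not overlap, which held for 39.7% of tested genes in that fit. The removal used an annotated length of 1719 bp, where the values of *Nkx2-5* gave whole reads at 1525 bp.

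*Gata4* (ENSMUSG00000021944, chromosome 14 from 63198922 to 63271692, minus strand), which is needed for the heart tube to fuse and for myocardial growth, went the same way. It stood at 2.76, 3.54 and 2.24 log2 RPKM in the *Pax9*-null libraries and at 3.60, 3.05 and −0.24 in the wild-type libraries. Wild-type replicate 3, with 41 reads against 216 to 602, was the lowest, and wild-type replicate 1 the highest. The geometric mean of wild-type replicates 1 and 2 was 11.9-fold that of replicate 3, against 14.4-fold for *Nkx2-5*. The log2 fold change between genotypes was 0.71 (SE 0.91, adjusted p = 0.610 by limma, interval −1.41 to 2.82). It was −0.48 without that library (SE 0.35, adjusted p = 0.364 by limma, interval −1.28 to 0.31) and −0.23 with the covariate (SE 0.31). *Pax9*-null replicate 2 was high and replicates 1 and 3 low among the 5 remaining libraries, so that the genotypes overlapped.

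*Gata6* (ENSMUSG00000005836, chromosome 18 from 11052064 to 11085635, plus strand) overlaps with *Gata4* in the myocardium and is also active in outflow tract and foregut cells. The *Pax9*-null libraries read 3.27, 3.86 and 2.63 log2 RPKM and the wild-type libraries 3.45, 3.06 and 1.75. The lowest was again wild-type replicate 3 and the highest *Pax9*-null replicate 2, as far apart as 135 and 535 reads. Replicates 1 and 2 of the wild type were 2.84-fold above replicate 3, a smaller gap than for *Gata4*. Over 6 libraries the genotypes differed by 0.50 (SE 0.46, adjusted p = 0.464 by limma). With wild-type replicate 3 left out the means were 3.25 in *Pax9*-null and 3.26 in wild-type libraries, and the log2 fold change had an interval of −0.74 to 0.73. The interval includes changes of either sign, and equal expression was not shown by it. With the length and GC trends also removed the difference was 0.39 (SE 0.29, adjusted p = 0.457 by limma). That removal used an annotated length of 6508 bp, where the values of *Gata6* gave whole reads at 3194 bp.

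*Gata5* (ENSMUSG00000015627, chromosome 2 from 180325133 to 180334699, minus strand) is expressed in endocardium and epicardium precursors and in foregut. Over all 6 libraries the regulator nearest to a call was *Isl1*, and without wild-type replicate 3 it was *Gata5*. The values of *Gata5* were 1.73, 2.51 and 1.68 log2 RPKM in the *Pax9*-null libraries and 2.63, 2.60 and 1.38 in the wild-type libraries. Wild-type replicates 1 and 2 were the highest of the 6 and wild-type replicate 3 the lowest, with 107 reads against 123 to 257. Over 6 libraries the difference was −0.23 (SE 0.37, adjusted p = 0.687 by limma). Without that library all 3 *Pax9*-null values lay below both wild-type values, by as little as 0.09 for *Pax9*-null replicate 2. The log2 fold change was then −0.64 (SE 0.26, interval −1.23 to −0.05), which is 0.641 of the wild-type level. It was not called (adjusted p = 0.140 by limma). The two-sided exact permutation test gave p = 0.2, where 3 libraries against 2 allow no less than 0.1. With the cardiomyocyte covariate the difference was −0.55 (SE 0.25, adjusted p = 0.159 by limma). Once the length and GC trends were removed and the library left out, the difference of *Gata5* was −0.35 (SE 0.23, adjusted p = 0.415 by limma, interval −0.89 to 0.20). The genotypes then overlapped.

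*Mef2c* (ENSMUSG00000005583, chromosome 13 from 83504034 to 83667080, plus strand), a partner of the Gata and NK2 factors in the heart that is also used in endothelium, neural crest and muscle, moved little. It stood at 2.69, 2.76 and 2.48 log2 RPKM in *Pax9*-null and at 2.78, 2.72 and 2.07 in wild-type libraries. With 831 to 1374 reads it was the most deeply counted of the 9. Wild-type replicate 3 was the lowest, at −0.41 from the next, and the remaining 5 libraries lay within 0.30 of each other. The log2 fold change was 0.12 (SE 0.20, adjusted p = 0.696 by limma) over 6 libraries and −0.11 (SE 0.14, adjusted p = 0.641 by limma, interval −0.44 to 0.23) without it.

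*Isl1* (ENSMUSG00000042258, chromosome 13 from 116298281 to 116309689, minus strand), the marker of second heart field progenitors and also of cranial motor and sensory neurons, was the steadiest over all 6 libraries, with an SD of 0.16. Over the 5 libraries other than wild-type replicate 3 *Mef2c* was steadier, with an SD of 0.12 against 0.18. *Pax9*-null libraries held 3.54, 3.52 and 3.40 log2 RPKM and wild-type libraries 3.09, 3.38 and 3.44. The lowest library was wild-type replicate 1, with 427 reads against 491 to 541, and wild-type replicate 3 was the highest wild-type library. The log2 fold change was 0.18 (SE 0.12, adjusted p = 0.294 by limma, interval −0.09 to 0.46). When wild-type replicate 3 was left out, all 3 *Pax9*-null values were above both wild-type values, the nearest pair by 0.03. The fold change was then 0.25 (SE 0.13, adjusted p = 0.230 by limma), and the exact permutation p was 0.1, the smallest that 3 against 2 can give. With the length and GC trends also removed it was 0.19 (SE 0.12, adjusted p = 0.390 by limma), with overlapping libraries. Of the 9 regulators it had the narrowest interval in the fit over 6 libraries. Neuronal markers, which rose in wild-type replicate 3, had a summed RPKM of 241.1 there, 150.6 and 151.7 in the other wild-type and 110.7 to 143.0 in the *Pax9*-null libraries. What part of the *Isl1* level came from neurons was not tested.

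*Nkx2-6* (ENSMUSG00000044186, chromosome 14 from 69171802 to 69175518, plus strand), a gene of the caudal pharyngeal pouches and of the sinus venosus and outflow tract, did not follow *Nkx2-5*. It read 2.70, 3.36 and 3.13 log2 RPKM in *Pax9*-null and 2.68, 3.77 and 3.27 in wild-type libraries. Replicate 1 was the lowest and replicate 2 the highest in both genotypes, from 85 to 191 reads, and the ranges overlapped nearly throughout. The difference of −0.18 (SE 0.28, adjusted p = 0.684 by limma) became −0.16 without wild-type replicate 3 (SE 0.32, interval −0.89 to 0.56). The difference of wild-type replicate 3 from the mean of the other wild-type libraries was 0.04 for *Nkx2-6* and −3.85 for *Nkx2-5*.

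*Nkx2-3* (ENSMUSG00000044220, chromosome 19 from 43612325 to 43615892, plus strand), a gene of the pharyngeal floor and gut tube, was low. Its values were 0.45, 0.59 and 0.74 log2 RPKM in *Pax9*-null and 0.67, 0.08 and 0.05 in wild-type libraries. Wild-type replicates 2 and 3 were the lowest, but wild-type replicate 1 lay among the *Pax9*-null values. Its log2 fold change, on 27 to 42 reads in each library, was 0.33 (SE 0.22, adjusted p = 0.321 by limma), and 0.22 without wild-type replicate 3 (SE 0.25, adjusted p = 0.563 by limma). Without wild-type replicate 1 it was 0.53 (SE 0.21, adjusted p = 0.146 by limma). The genotypes then did not overlap, which held for 6593 of the 13547 tested genes in that fit.

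*Gata3* (ENSMUSG00000015619, chromosome 2 from 9857078 to 9890034, minus strand), a gene required for the parathyroid and for sympathetic neurons, was also low. *Pax9*-null libraries stood at 0.59, 0.78 and 0.37 log2 RPKM and wild-type libraries at 0.64, 1.05 and 0.87, from 60 to 101 reads. The highest values were in wild-type replicates 2 and 3 and the lowest in *Pax9*-null replicate 3, with the ranges overlapping. The log2 fold change was −0.27 (SE 0.19, adjusted p = 0.343 by limma, interval −0.71 to 0.17) and −0.26 without wild-type replicate 3 (SE 0.23), so that this library made little difference.

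**Figure D2:**
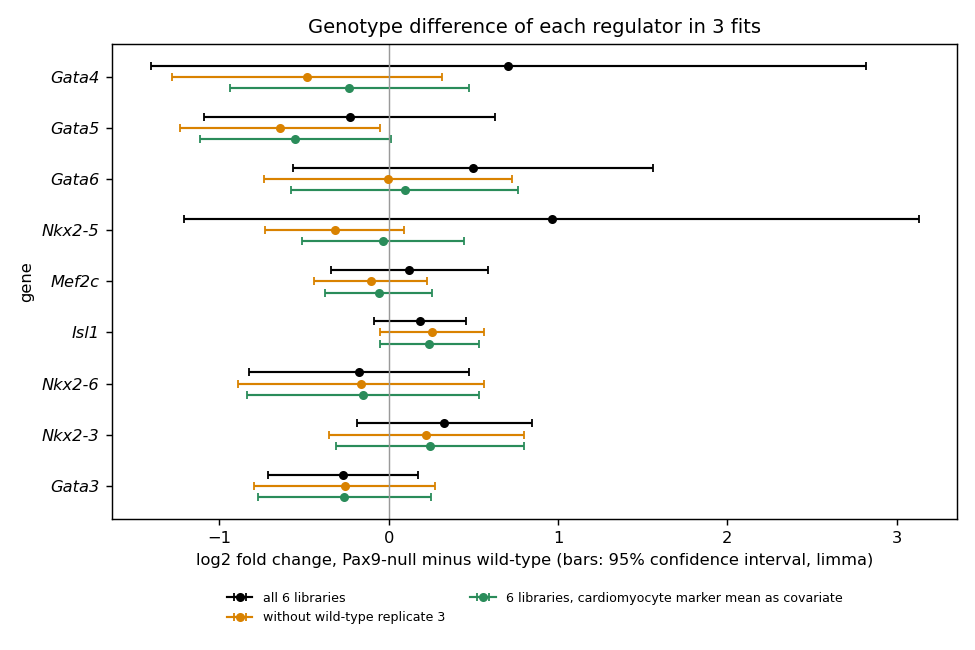
Log2 fold change of each regulator, *Pax9*-null minus wild type (horizontal axis), with bars for the 95% confidence interval by limma. Black is the fit of all 6 libraries, orange the fit without wild-type replicate 3 and green the fit of 6 libraries with the cardiomyocyte marker mean as a covariate. Of the 27 bars, 26 cross 0, and the exception is *Gata5* without wild-type replicate 3, from −1.23 to −0.05. The black bars of *Gata4* and *Nkx2-5* are the widest.

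The drop in wild-type replicate 3 was uneven across the regulators. Its log2 RPKM minus the mean of the other 5 libraries was −3.65 for *Nkx2-5*, −3.28 for *Gata4*, −1.50 for *Gata6*, −0.85 for *Gata5*, −0.62 for *Mef2c* and −0.45 for *Nkx2-3*. It was 0.06 for *Isl1*, 0.14 for *Nkx2-6* and 0.19 for *Gata3*. The median over the cardiomyocyte markers was −4.21, so that *Nkx2-5* and *Gata4* came closest to the contractile genes. Genes of the epicardium and septum transversum had a median of −1.26, with replicate 3 the lowest for 5 of 8. Cardiac transcription factors other than the 9 had −1.24, with 11 of 14 lowest. In second heart field genes the median was −0.21, in pharyngeal and foregut endoderm −0.15 and in neural crest 0.09.

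**Figure D3:**
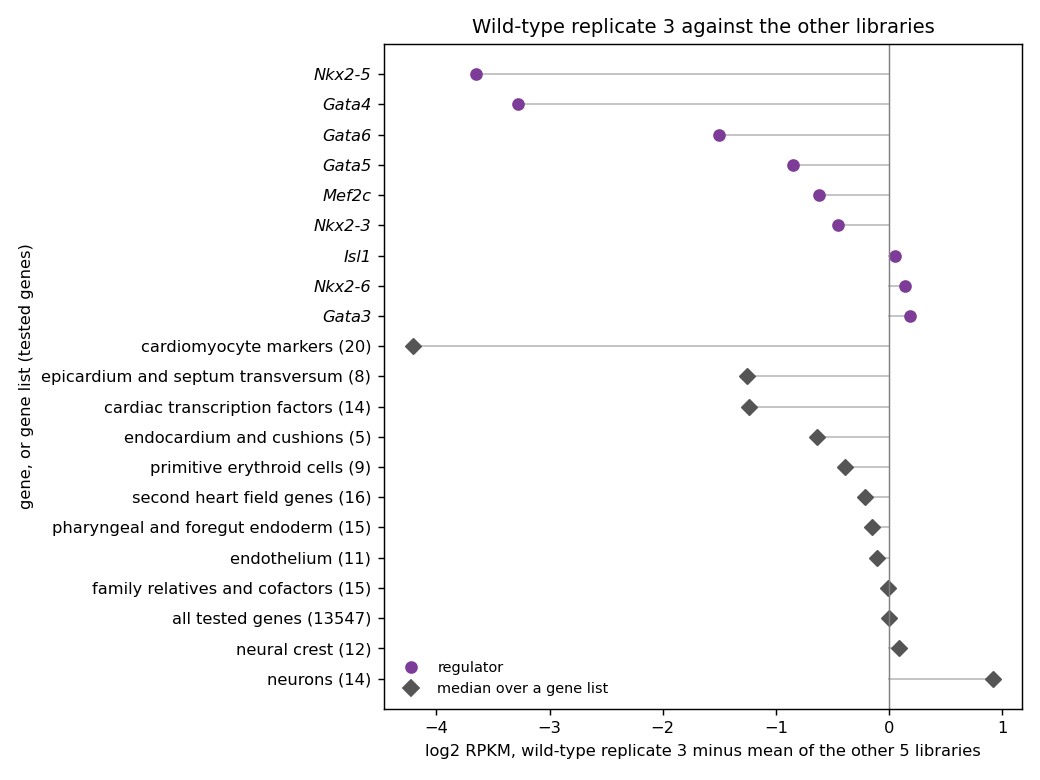
Log2 RPKM of wild-type replicate 3 minus the mean of the other 5 libraries (horizontal axis), for each regulator (purple circles) and as the median over each gene list (grey diamonds, number of tested genes in brackets). *Nkx2-5* and *Gata4*, at −3.65 and −3.28, lie near the cardiomyocyte markers at −4.21, and *Isl1*, *Nkx2-6* and *Gata3* lie near all tested genes at 0.

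RPKM is per length and allows levels to be set beside each other, as far as the length used is right. Over 6 libraries of both genotypes the order of mean log2 RPKM was *Isl1* (3.40), *Nkx2-6* (3.15), *Gata6* (3.01), *Mef2c* (2.59), *Gata4* (2.49), *Gata5* (2.09), *Nkx2-5* (1.49), *Gata3* (0.72) and *Nkx2-3* (0.43). No neighbours in this order differed by more than the SD of their difference over libraries. *Isl1* exceeded *Nkx2-6* by 0.24 ± 0.40 (SD, 6 libraries), for instance, and *Gata5* exceeded *Nkx2-5* by 0.60 ± 1.22. In the 5 libraries other than wild-type replicate 3, *Gata6* and *Gata4* moved up to the 2nd and 4th places, and *Nkx2-5* rose to 2.10. Then *Mef2c* exceeded *Gata5* by 0.46 ± 0.40 and *Nkx2-5* exceeded *Gata3* by 1.41 ± 0.20, each in 5 of 5 libraries, and the other neighbours stayed within their spread. Expressed in RPKM, the 9 regulators ranged from a geometric mean of 1.35 for *Nkx2-3* to 10.5 for *Isl1*. The values of *Gata6* and *Nkx2-5* gave whole reads at lengths of 3194 and 1525 bp, where the GENCODE M21 exons add up to 6508 and 1719 bp. At the annotated lengths the mean log2 RPKM over 6 libraries would be 1.98 for *Gata6*, in the 6th place after *Gata5*, and 1.31 for *Nkx2-5*, still in the 7th.

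Ratios between related regulators were taken within each library for 6 pairs. *Gata6* exceeded *Gata5* 2.92-, 2.55- and 1.92-fold in the *Pax9*-null libraries and 1.77-, 1.38- and 1.29-fold in the wild-type libraries. The 3 *Pax9*-null ratios were the highest, and wild-type replicate 3 was close to wild-type replicate 2. On the log2 scale the *Pax9*-null embryos had a difference between the genes of 1.28 ± 0.31 (SD, n = 3), and the wild-type embryos one of 0.55 ± 0.24 (SD, n = 3). The exact permutation test gave p = 0.1, the smallest possible with 3 against 3, and 0.6 after adjustment over the 6 pairs, so that the difference did not pass. At the annotated lengths the ratios would be 1.43, 1.25 and 0.94 in *Pax9*-null and 0.87, 0.68 and 0.63 in wild-type libraries, so that which gene is higher depends on the length, whereas the difference between genotypes does not. As deposited, *Gata4* stood at 0.70, 0.80 and 0.77 of *Gata6* in the *Pax9*-null libraries and at 1.11, 0.99 and 0.25 in the wild-type libraries, with the *Pax9*-null values between those of the wild type. In wild-type replicate 3, *Isl1* exceeded *Nkx2-5* 32.0-fold, against 1.86- to 3.16-fold in the other 5 libraries.

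The genes with the most similar profile over the 6 libraries were sought among the 7978 tested genes whose mean reached 5 RPKM, by the root mean square difference of the centred log2 values. For *Nkx2-5* they were *Rrad* (0.12), *Cryab* (0.16) and *Apobec2* (0.17), against a root mean square of 1.38 for the profile of *Nkx2-5* itself. The nearest to *Gata4* were *Nebl* (0.26), *Unc45b* (0.31) and *Mylk3* (0.32). *Gata6* was nearest to *Wnt2* (0.19), *Dsc2* (0.22) and *Smtnl2* (0.25), and *Gata5* to *Podxl* (0.18), *Bmp7* (0.20) and *Tgfb2* (0.21). No gene was in the nearest 3 of more than 1 of these 4 regulators. *Isl1*, with a profile of only 0.15, had *Btg1* (0.03), *Rdh10* (0.04) and *Tob1* (0.04), and *Mef2c* had *Degs1*, *Pgm2* and *Rbpms* (each 0.07). *Nkx2-6* was nearest to *Znhit2* (0.17), *Nkx2-3* to *Ikbip* (0.11) and *Gata3* to *Gm16314* (0.08). All genes share the 6 libraries, and the profiles of *Nkx2-5* and *Gata4* deviate most in wild-type replicate 3.

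**Figure D4:**
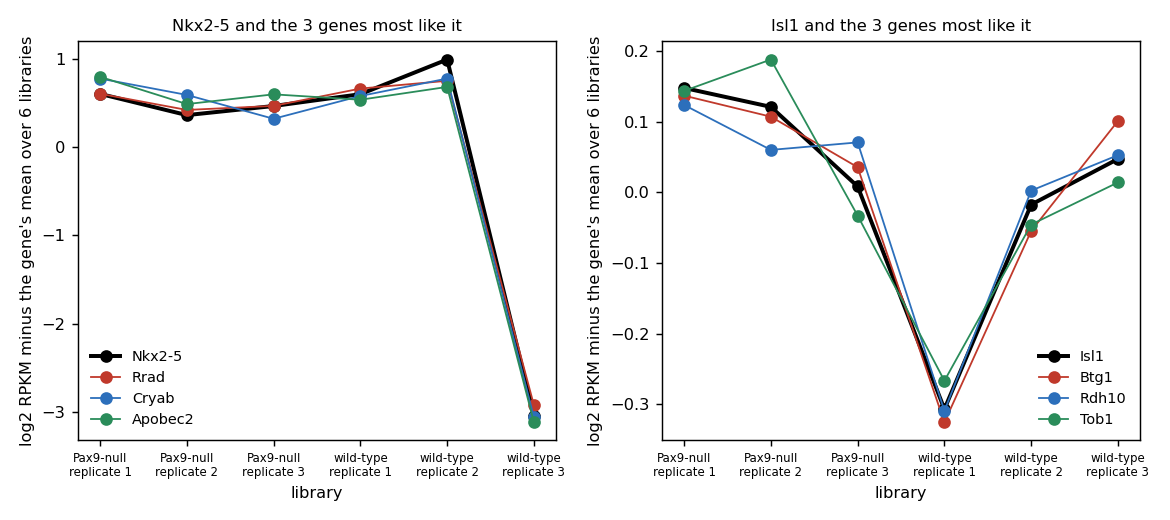
Log2 RPKM of *Nkx2-5* (left) and *Isl1* (right) in each library after subtraction of the mean over 6 libraries (black), with the 3 genes of the most similar profile (coloured lines). The vertical scales differ between the panels. *Nkx2-5* and its 3 genes fall together in wild-type replicate 3, and *Isl1* and its 3 genes are lowest in wild-type replicate 1.

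Relatives and cofactors of the 9 were compared in the same fit, where 15 of the 18 listed were tested, 0 were called higher and 2 lower, with a median log2 fold change of −0.04. Over all tested genes 26.7% were called in this fit, the share to set beside this and the following list counts. *Hdac7*, a class IIa histone deacetylase of the kind that binds Mef2 proteins, stood at 1.29, 2.02 and 1.39 log2 RPKM in *Pax9*-null and at 2.28, 2.14 and 2.30 in wild-type libraries. The genotypes did not overlap, as in 41.9% of tested genes. *Hdac7* fell by 0.67 (SE 0.20, adjusted p = 0.0672 by limma). *Ldb1*, the adaptor that joins Isl1 and other LIM proteins into complexes, fell by 0.29 (SE 0.077, adjusted p = 0.0541 by limma) from an abundant level of 27.5 to 28.8 RPKM in the wild type. After leaving out wild-type replicate 3 the log2 fold changes were −0.64 for *Hdac7* and −0.30 for *Ldb1*. Their adjusted p by limma was then 0.126 and 0.108, and 1 of the 15 was called, against 15.8% of all tested genes.

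That gene was *Zfpm1*, the Friend of Gata cofactor that binds the zinc fingers of Gata factors. Its log2 RPKM was 1.38, 1.85 and 1.50 in *Pax9*-null and 2.70, 2.15 and 1.49 in wild-type libraries, so that wild-type replicate 3 lay within the *Pax9*-null range. Over 6 libraries it differed by −0.53 (adjusted p = 0.235 by limma), and without wild-type replicate 3 by −0.85 (SE 0.23, adjusted p = 0.0744 by limma). *Zfpm2*, the second member of this family, differed by 0.24 (SE 0.43, adjusted p = 0.716 by limma). The blood factor *Gata1* stood at 1.89, 0.21 and 1.83 log2 RPKM in *Pax9*-null and at 1.15, 0.80 and 1.12 in wild-type libraries. Its lowest library, *Pax9*-null replicate 2, also had the lowest sum of the *Pax9*-null libraries over 9 primitive erythroid genes (2683 RPKM against 4546 and 4995). *Nkx2-9*, *Isl2*, *Mef2a* and *Mef2d* had log2 fold changes of 0.05, −0.04, 0.10 and −0.50, with adjusted p by limma of 0.948, 0.940, 0.620 and 0.136.

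Of 14 other cardiac transcription factors, 0 were called higher and 1 lower, with a median of 0.23. This was *Tbx2*, a repressor of chamber genes in the outflow tract and atrioventricular canal, at −0.64 (SE 0.14, adjusted p = 0.0420 by limma) and with replicate 3 not the lowest wild-type library. *Tbx2* was also called without wild-type replicate 3 (adjusted p = 0.0754 by limma), where *Hopx*, a cofactor in cardiomyocytes and their progenitors, was called at 0.52 (SE 0.15, adjusted p = 0.0788 by limma). Among 16 tested second heart field genes 0 rose and 2 fell, *Tbx1* (−0.42) and *Eya1* (−0.37), with adjusted p of 0.0473 and 0.0830 by limma. Without wild-type replicate 3, 0 were called, and *Tbx1* and *Eya1* were at −0.41 and −0.31 (adjusted p = 0.103 and 0.190 by limma). The study reports lower *Tbx1* by qPCR and in situ hybridisation as well. The 20 cardiomyocyte markers had 0 calls and a median of 1.18 over 6 libraries, and 1 higher, 5 lower and a median of −0.14 without wild-type replicate 3. In pharyngeal and foregut endoderm, where several of the 9 are also expressed, 1 of 15 rose, *Sox17*, and 0 fell. Endothelial genes had 0 higher and 2 lower of 11, *Cdh5* and *Tie1*, and endocardial and cushion genes 0 of 5.

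In neural crest 1 of 12 rose and 1 fell, *Twist1* and *Sox10*, and of 14 neuronal genes 0 rose and 3 fell, *Nefm*, *Ina* and *Elavl3*. Epicardium and septum transversum had 1 higher of 8, *Tcf21*. *Hbb-bh1* was among the primitive erythroid genes that rose, and was not the only one. Of 9 hepatocyte and visceral endoderm markers 0 were expressed highly enough to be tested. Over the lists other than the 9, 16 genes were called in all, in a fit that called 26.7% of all tested genes. Without wild-type replicate 3 *Sox17*, *Tcf21*, *Hbb-bh1* and *Sox10* were among the genes no longer called, with adjusted p by limma of 0.129, 0.188, 0.121 and 0.149. Their log2 fold changes moved little, from 0.54, 0.40, 0.78 and −0.59 over 6 libraries to 0.54, 0.36, 0.80 and −0.56. Over these lists, leaving out *Pax9*-null replicate 1 gave 2 calls, *Pax9*-null replicate 2 gave 25, *Pax9*-null replicate 3 gave 0 and wild-type replicate 1 gave 8. In each of these fits 0 of the 9 regulators were called. Over all 13547 tested genes the same fits called 301, 3056, 175 and 1799, in the same order. Where few genes are called at all, a count of 0 says little about the regulators. Whether differences in tissue content enter the values of the regulators was not tested.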

How the data were processed

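The authors trimmed reads with Trimmomatic 0.32, aligned them with STAR 2.5.1a to GRCm38, kept unique and non-redundant reads, sub-sampled the libraries towards the smallest and counted reads per gene with featureCounts 1.5.1. Versions are from the submitters' processing notes. Roles, and the tissue and library kit followed here, are from the study's methods: whole dissected tissue and strand-specific TruSeq libraries, where the labels name sorted cells and another kit. The deposited values are log2 RPKM with a prior count of 0.5 reads, as worked out from the values. The recovered reads were within 0.05 of a whole number for 88.9% of the 27140 values under 100 reads. GENCODE M21 gave gene lengths and positions for 14617 of the 14647 genes. For *Gata6* and *Nkx2-5* the length behind the values differed from it and was found by search.

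Differential expression was computed with limma 3.58.1 in R 4.3.3 on the log2 values as deposited (lmFit, then eBayes with trend set to true), two-sided. It replaces limma on voom values, which needs counts. Tested were the genes whose mean over all 6 libraries reached 0.5 RPKM, with Benjamini-Hochberg adjustment over all of them and a threshold of 0.1. The script was tested on simulated data. The exact permutation test used the difference of means. Groups came from the genotype labels. Effective library sizes of 11509498 to 12692202 reads, found from the steps of the values, leave the regulators with 6 to 1374 reads per library, and counting error is largest at the low end. The libraries are separate embryos, and p-values measure the spread between them.

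The regulators and gene lists were chosen with earlier results of these data known. Named were all regulators, *Pax9*, any tested relative or cofactor, and, in each list, the gene with the highest mean RPKM and the 3 with the smallest adjusted p, except 1 gene that is not reported here; the most similar genes were the 3 with the smallest root mean square difference. Alternatives were pseudocounts of 0.1 and 1, no filter or a mean of at least 5 RPKM, median centring, quantile normalization, removal of each library's trend with gene length and GC content (splines, 5 df), a replicate block, no variance trend, the cardiomyocyte covariate, a threshold of 0.05 and leaving out each library. Same-numbered libraries of the 2 genotypes did not all deviate together, with correlations of −0.02, −0.17 and 0.26 for replicates 1, 2 and 3. The numbers were therefore not taken as pairs.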

Additional observations from a re-analysis of the deposited data

How the results depend on the processing

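Of the 9 regulators 0 were called under any alternative, and the lowest adjusted p by limma was 0.140, for *Gata5* without wild-type replicate 3. The log2 fold changes of *Gata3*, *Nkx2-3* and *Isl1* kept their sign throughout. With any 1 library left out, *Gata4*, *Nkx2-5* and *Mef2c* ran from −0.48 to 1.44, −0.32 to 1.70 and −0.11 to 0.25, and were below 0 without wild-type replicate 3. *Gata6* ran from −0.0035, without that library, to 0.85. *Nkx2-6* ran from −0.46 to 0.089, above 0 without *Pax9*-null replicate 1 or wild-type replicate 2. With the cardiomyocyte covariate *Gata4*, *Nkx2-5* and *Mef2c* were at −0.23, −0.034 and −0.059. With length and GC trends removed *Gata5* was at 0.051. Without wild-type replicate 3 and with these trends removed, an alternative chosen after seeing the data, *Gata4*, *Nkx2-5* and *Mef2c* were at −0.14, −0.48 and −0.038, *Gata6* at 0.39, *Gata5* at −0.35 and *Isl1* at 0.19. *Gata5* and *Isl1* then overlapped between genotypes and *Nkx2-5* did not. The trends were fitted on the annotated lengths. For *Gata6* and *Nkx2-5* these are 6508 and 1719 bp, not the 3194 and 1525 bp behind the values, so their trend-removed values carry that error. The cause of the change with length and GC was not tested.

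The count over all tested genes moved more than that of the regulators. From 3611 it fell to 511 with length and GC trends removed, 304 with wild-type replicate 3 also left out, 1377 with a replicate block and 1335 at the threshold of 0.05, and it ran from 175, without *Pax9*-null replicate 3, to 3578 with 1 library left out. The 16 calls in the other lists became 1, 1, 6 and 6 in the same order, 26 with the cardiomyocyte covariate and 0 to 25 with 1 library left out. Of the 26, 11 were cardiomyocyte markers, the genes whose mean is the covariate, against 0 of them in the main fit. Same-numbered libraries correlated at −0.02, −0.17 and 0.26, not every library correlated best with its own number, and the replicate block changed no call of a regulator. Levels of *Nkx2-3*, at 27 to 42 reads, and of *Nkx2-5* in wild-type replicate 3, at 6 reads, are limited by depth. At a minimum mean of 5 RPKM, *Gata3*, *Gata5*, *Nkx2-3* and *Nkx2-5* were not tested.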
